A study of Mus musculus with 6 samples.

Results

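The proteasome subunit genes were described in bulk RNA sequencing of 6 YUMM3.3 melanoma tumors, 3 from vehicle-treated and 3 from rigosertib (RGS)-treated mice. Members were the protein-coding rows of the count table whose symbol is Psma, Psmb, Psmc, Psmd, Psme, Psmf or Psmg followed by a number and at most 1 letter, without the 3 immunoproteasome catalytic genes Psmb8, Psmb9 and Psmb10, which are shown beside them for comparison. The rule found 46 of the 40166 rows in the table, for 45 symbols, because Psme2 has a second row on a scaffold of another mouse strain. They comprise 8 alpha-ring and 8 beta-ring genes of the 20S core, 6 ATPases and 11 other subunits of the 19S cap, 4 chaperones of core assembly, 2 chaperones of cap assembly, and 7 rows for the other caps and the inhibitor Psmf1. Psmd10 was not analysed here.

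YUMM3.3 is an established mouse melanoma line with mutant BRAF, and the tumors grew under the skin of C57BL/6 mice, which have an intact immune system. RGS, a small molecule described as a mimetic of RAS, was given by oral gavage at 300 mg/kg for 17 days, and the vehicle was water. All 6 tumors grew from the same line, and the labels give no difference between the groups other than the agent. The labels name 3 replicates per group and do not say whether each came from its own mouse, so the p-values measure the spread between these samples, which may be technical.

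The proteasome degrades proteins that carry ubiquitin chains. Its barrel-shaped 20S core is built from outer rings of alpha subunits, which gate the entrance, and inner rings of beta subunits, of which Psmb5, Psmb6 and Psmb7 encode the catalytic ones. The 19S cap binds ubiquitin, removes it, and unfolds the protein with a ring of ATPases. Other caps can replace it, among them PA28 (Psme1 and Psme2, or Psme3 alone) and PA200 (Psme4). Interferon induces the immunoproteasome catalytic subunits and the PA28 of Psme1 and Psme2, which shape the peptides that tumor cells present to T cells. In tumor cells whose proteasome is inhibited, the transcription factor encoded by Nfe2l1 is known to raise the subunit genes together through antioxidant response elements.

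The vehicle libraries summed to 22793087 to 32555494 counts and the RGS libraries to 13837932 to 21617368, so that 3 counts corresponded to at most 0.217 CPM of the unadjusted total. CPM are counts per 1000000 counts of the library, and the gene levels in CPM use totals adjusted by edgeR's TMM factors. Since the shallowest vehicle library was still deeper than the deepest RGS library, depth and treatment cannot be told apart in the full counts. A fit on counts thinned to the smallest library is given at the end. Ribosomal protein genes took 5.52 to 9.98% of the counts in the vehicle tumors and 3.07 to 3.6% in the RGS tumors, and mitochondrial genes took 2.13 to 3.2% and 5.6 to 8.22%. The tumors were labelled as melanoma, but of 7 melanocyte lineage markers Dct, Tyr and Mlana had no count in any tumor, and Mitf lay between 4.28 and 10.5 CPM. Of 8 leukocyte markers, Ptprc, Cd3e, Cd8a, Adgre1 and Nkg7 had no count in any tumor, and the summed level of the list was 0 to 0.599 CPM in the vehicle tumors and 6.39 to 11 CPM in the RGS tumors, nearly all of it from Flt3. The summed level of 3 endothelial markers was 0.731 to 0.962 CPM against 3.24 to 11.1 CPM, of 4 fibroblast markers 171 to 233 CPM against 115 to 136 CPM, and of 3 keratinocyte markers 0 to 0.086 CPM against 5.87 to 19.6 CPM. Of the endothelial markers, Cdh5 rose from a mean of 0.555 to 6.2 CPM, while Pecam1 did not pass (adjusted p 0.351, edgeR). Kdr had 6 counts in vehicle tumor 8, 3 in RGS tumor 12 and 0 elsewhere. The fibroblast markers went both ways, since Pdgfra and Pdgfrb fell, Dcn rose from a mean of 1.14 to 10.7 CPM, and Lum was at 0 throughout. All of the keratinocyte level in the RGS tumors was Ivl, and Krt5 and Krt14 had no count there. The part of these differences in the results on the proteasome genes was not tested, and fewer cells of a type and less RNA per cell cannot be told apart in bulk tumors.

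The proteasome genes did not move as a block. Of the 43 that could be tested, 6 fell and 7 rose with RGS in edgeR's quasi-likelihood test (adjusted p under 0.05), and 30 did not pass. Among all 15355 genes tested, 16.5% fell, 16.3% rose and 32.8% passed in either direction, so the 30.2% of the proteasome genes that passed is close to the background. The median log2 fold change of RGS over vehicle was 0.06 over the 43 genes and -0.05 over all genes tested. Both groups' CPM values were fully apart in 14 of the 43 genes, and in 45.8% of all genes tested. The count of lower genes depended on single tumors: it was 11 without vehicle tumor 7, 3 without vehicle tumor 8, vehicle tumor 9 or RGS tumor 10, and 4 without RGS tumor 11 or 12, while the count of higher genes stayed at 6 or 7. The lower genes Psma6, Psmc6 and Psme2 and the higher genes Psmd1, Psmd2, Psmd3 and Psme4 passed in each of the 16 alternative fits.

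The calls are given here by the part of the particle that the genes encode. In the 20S core, 2 of 14 tested genes fell and 0 rose, with a median log2 fold change of -0.11. In the 19S cap, 2 of 17 fell and 5 rose, with a median of 0.16. Of the 6 assembly chaperone genes 1 fell and 0 rose, with a median of -0.16. Of the 6 tested genes for the other caps and Psmf1, 1 fell and 2 rose, with a median of 0.38. That median includes Psme2b, with only 83 counts over all tumors and a log2 fold change of 2.49 ± 1.6 (SE). The shares that passed in either direction were 14.3% in the core, 41.2% in the cap, 16.7% in assembly and 50% in the last group. Among all genes tested the share was 32.8%. For the counts of 0 among core and assembly genes, DESeq2 and limma voom also called 0 higher, and 0 had an unadjusted p under 0.05 in that direction.

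**Figure D1:**
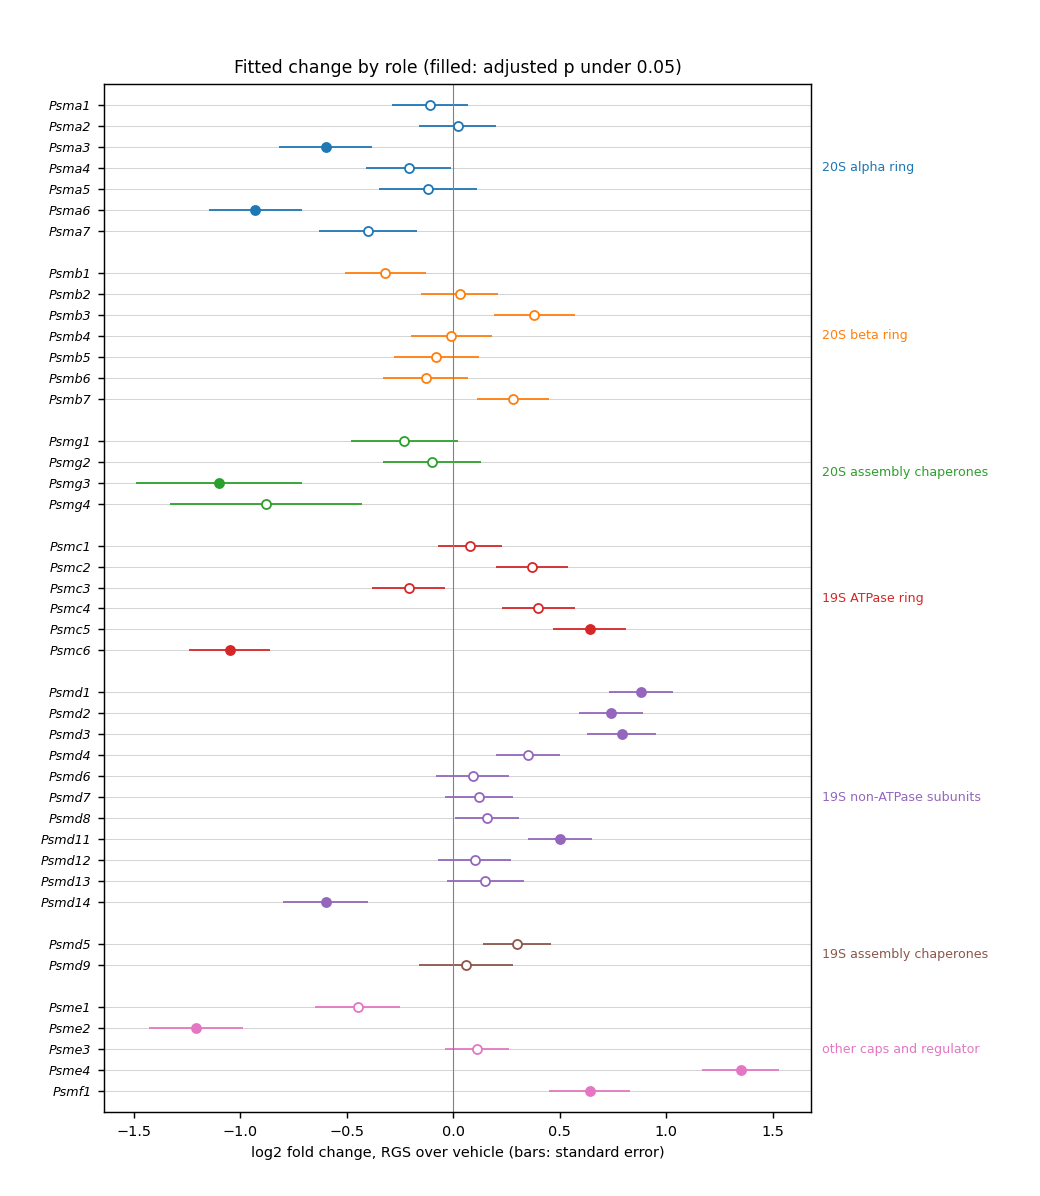
Fitted log2 fold change of RGS over vehicle for each tested proteasome gene except Psme2b, with bars of 1 standard error, grouped by role; filled points have an adjusted p under 0.05 in edgeR's quasi-likelihood test. The 7 beta-ring genes are all open circles between -0.32 and 0.38, while the cap genes run from -1.05 for Psmc6 to 0.88 for Psmd1.

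The alpha ring held the falling genes of the core. Of its 7 tested genes, 2 passed (28.6%), both lower, against 32.8% of all genes tested that passed in either direction. Psma6, an alpha subunit on chromosome 12 (positions 55384222 to 55418454 of GRCm38), stood at 194, 361 and 462 CPM in vehicle tumors 7, 8 and 9 and at 160, 194 and 179 CPM in RGS tumors 10, 11 and 12. The groups did not overlap, although the lowest vehicle tumor lay only just above the highest RGS tumor. Its log2 fold change was -0.93 ± 0.22 (SE), a 1.91-fold lower level, with an adjusted p of 0.00338 in edgeR's quasi-likelihood test. Psma3, another alpha subunit, stood at 174, 308 and 415 CPM in the vehicle tumors and at 180, 205 and 207 CPM in the RGS tumors. Here the groups overlapped, vehicle tumor 7 being the lowest of all 6, and 4 near-identical copies of the gene held 251 counts, 0.732% of its own. Psma3 fell by 0.60 on the log2 scale (SE 0.22, adjusted p 0.0433, edgeR). This call was lost in 6 of the alternative fits, and without vehicle tumor 9 the log2 fold change was -0.29 with an adjusted p of 0.283 by edgeR. The other 5 tested alpha genes had log2 fold changes from -0.40 for Psma7 to 0.02 for Psma2 and did not pass. Psma7 was called lower in limma voom (adjusted p 0.00901) and, with a log2 fold change of -0.69, by edgeR without vehicle tumor 7 (adjusted p 0.000373), where Psma4 was called lower as well (adjusted p 0.0344). Psma8, the alpha subunit of testis, had no count in any tumor.

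The promoters of Psma3 and Psma6 are shown because both hold the CCAAT box that the factor NF-Y binds and that is known from proteasome gene promoters. Each is the RefSeq window of 250 bases before to 50 bases after an annotated start in GRCm38.p6, on the plus strand, with CCAAT or its reverse complement in capitals. In Psma3, the reverse complement and the CCAAT that follows it lie in the 50 bases after the start. The Psma3 window is chr12:70974373-70974672 and the Psma6 window is chr12:55383972-55384271, the farther upstream of 2 annotated starts, and the window of the other start holds 0 CCAAT boxes.
Psma3: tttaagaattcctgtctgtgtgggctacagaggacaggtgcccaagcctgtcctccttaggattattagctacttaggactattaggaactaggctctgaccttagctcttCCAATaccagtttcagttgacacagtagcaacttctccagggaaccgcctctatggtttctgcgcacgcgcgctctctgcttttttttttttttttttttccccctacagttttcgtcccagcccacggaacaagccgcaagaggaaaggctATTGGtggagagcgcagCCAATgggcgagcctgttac
Psma6: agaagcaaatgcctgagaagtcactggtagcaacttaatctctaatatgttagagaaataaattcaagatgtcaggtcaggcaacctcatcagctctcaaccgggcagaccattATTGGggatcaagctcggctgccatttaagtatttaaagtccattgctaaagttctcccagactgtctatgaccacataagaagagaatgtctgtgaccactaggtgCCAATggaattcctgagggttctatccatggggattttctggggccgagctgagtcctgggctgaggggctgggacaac

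None of the 7 tested beta-ring genes passed edgeR's quasi-likelihood test in either direction, 0 had an unadjusted p under 0.05, DESeq2 called 0, and limma voom called Psmb1 lower, as did edgeR without vehicle tumor 7 (adjusted p 0.00426). Of all genes tested, 32.8% passed in either direction. The median log2 fold change of the beta ring was -0.01. Psmb5, which encodes the chymotrypsin-like subunit, stood at 147, 211 and 277 CPM in the vehicle tumors and at 170, 230 and 201 CPM in the RGS tumors. Psmb6, the caspase-like subunit, stood at 116, 189 and 212 CPM against 128, 162 and 184 CPM. For both genes the RGS values lay inside the range of the vehicle values, and the log2 fold changes were -0.08 ± 0.20 and -0.13 ± 0.20 (SE). Psmb7, the trypsin-like subunit, stood at 80.9, 96.7 and 100 CPM against 103, 98.2 and 135 CPM, with a log2 fold change of 0.28 ± 0.17 (SE, adjusted p 0.229, edgeR). Psmb7 shares 405 exon bases with Nek6 on the other strand, and since the strand setting of the counting is not given in the sources used here, reads of both cannot be told apart there. Psmb11, the subunit of thymus, had 2 and 3 counts in RGS tumors 11 and 12 and 0 in the other 4, and was not tested.

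**Figure D2:**
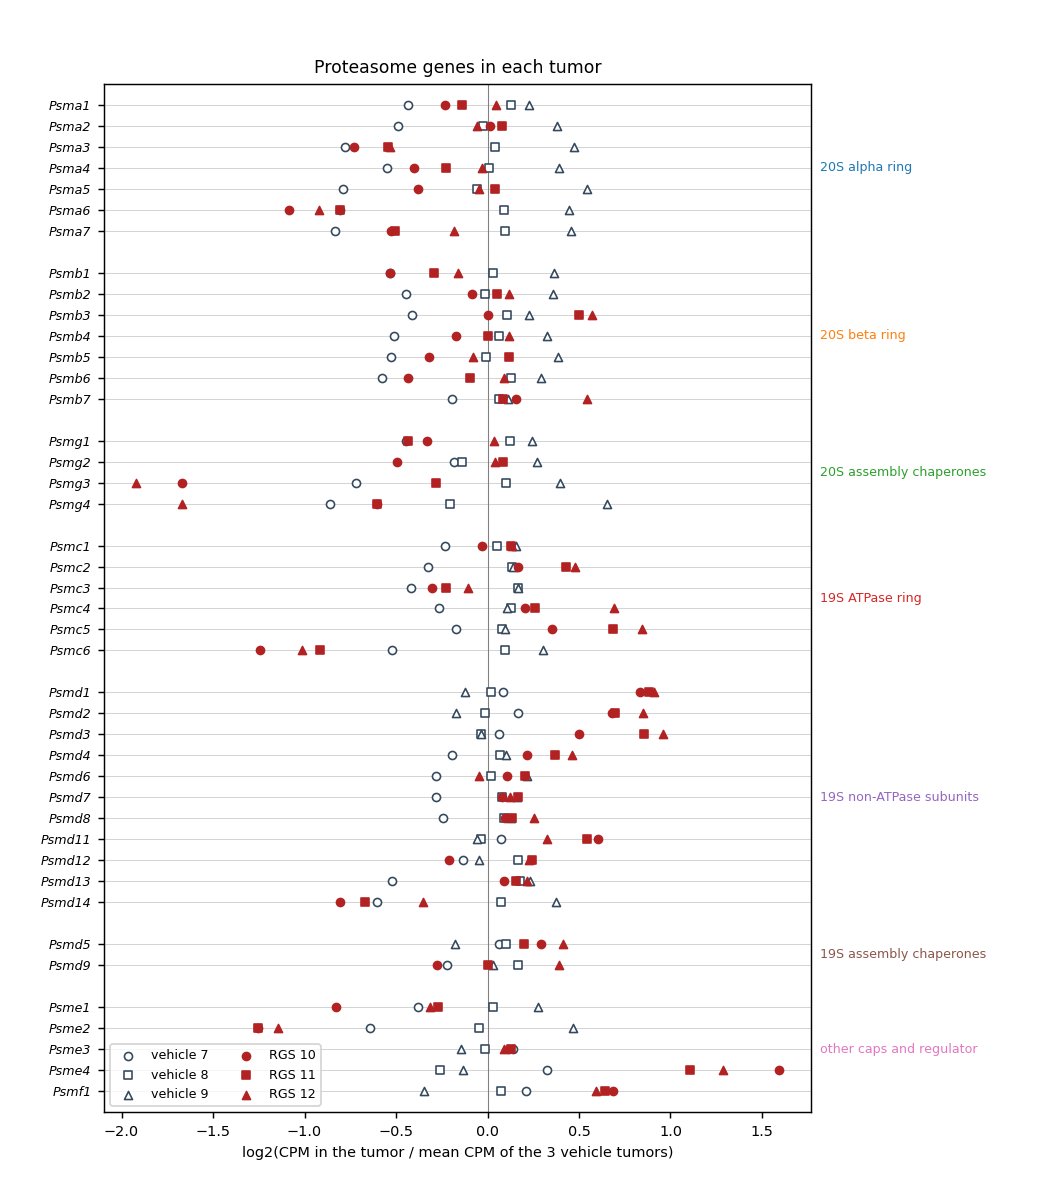
Level of each tested proteasome gene except Psme2b in each tumor, as log2 of its CPM over the mean CPM of the 3 vehicle tumors; open symbols are vehicle tumors and filled red symbols RGS tumors. In all 14 core genes the lowest vehicle value is tumor 7 (circle) and the highest is tumor 9 (triangle), whereas Psmd1, Psmd2, Psmd3 and Psme4 show all RGS tumors above all vehicle tumors.

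The vehicle tumors differed among themselves in the core genes. Vehicle tumor 7 was the lowest and vehicle tumor 9 the highest of the vehicle tumors in 14 of 14 core genes. Among the RGS tumors, tumor 10 was the lowest in 12 of 14. The median ratio of highest to lowest tumor over the core genes was 1.85 in the vehicle group and 1.29 in the RGS group, against 1.47 and 1.43 over all genes tested. In the alpha ring it was 2.38 among vehicle tumors and 1.22 among RGS tumors, and in the 19S cap 1.31 and 1.19. The order of the vehicle tumors in the core was also the order of their share of ribosomal protein counts, 5.52, 8.18 and 9.98%, and the reverse of the order of their library totals. The part of either in the core levels was not tested.

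With each gene divided by its length, the summed level of the core over that of the 19S cap was 0.895, 1.13 and 1.4 in vehicle tumors 7, 8 and 9 and 0.834, 0.911 and 0.87 in RGS tumors 10, 11 and 12. The groups overlapped, vehicle tumor 7 falling among the RGS tumors. The summed core level was 1010, 1610 and 2050 CPM per kb in the vehicle tumors and 1160, 1390 and 1420 CPM per kb in the RGS tumors. The summed cap level was 1130, 1410 and 1470 CPM per kb against 1400, 1530 and 1640 CPM per kb. Per kb of coding sequence, core genes ran in the vehicle tumors from 111 for Psmb7 to 586 CPM for Psma7 around a median of 295 CPM. Cap genes ran from 73 CPM for Psmd1 to 558 CPM for Psmd8 around a median of 139 CPM. These levels per kb are of mRNA and are not amounts of protein.

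Of the 3 immunoproteasome genes, Psmb8 and Psmb10 fell and Psmb9 did not pass the test. Psmb8, the counterpart of Psmb5, was counted 578, 628 and 674 times in vehicle tumors 7, 8 and 9 and 89, 56 and 63 times in RGS tumors 10, 11 and 12, or 16.5, 22.4 and 29 CPM against 4.21, 4.22 and 3.85 CPM. No RGS tumor came near the vehicle range. The log2 fold change was -2.46 ± 0.30 (SE, adjusted p 4.88e-06, edgeR). Psmb10, the counterpart of Psmb7, stood at 8.02, 8.73 and 15.6 CPM in the vehicle tumors and at 2.08, 2.71 and 4.41 CPM in the RGS tumors, again without overlap, and its log2 fold change was -1.81 ± 0.42 (SE, adjusted p 0.0027, edgeR). Psmb9, the counterpart of Psmb6, had only 22, 32 and 68 counts against 1, 13 and 2. RGS tumor 11 overlapped with the vehicle tumors in Psmb9 CPM, and the log2 fold change of -2.06 ± 1.24 (SE) did not pass, with an adjusted p of 0.217 by edgeR. It was -4.17 without RGS tumor 11, with an adjusted p of 0.0459.

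Within each tumor, the immunoproteasome gene was compared with its counterpart per kb of exon, which removes the scaling of the library. Psmb8 was 3.68, 3.49 and 3.44% of Psmb5 in vehicle tumors 7, 8 and 9 and 0.814, 0.604 and 0.631% in RGS tumors 10, 11 and 12. The vehicle values lay close together although Psmb5 itself differed between those tumors, and the mean log2 ratio was 2.38 lower in RGS tumors, or 5.22-fold. Psmb10 was 19.9, 18.1 and 31.2% of Psmb7 against 4.05, 5.54 and 6.57%, a 4.24-fold lower ratio. Psmb9 was 0.276, 0.308 and 0.704% of Psmb6 against 0.0189, 0.309 and 0.034%, and the groups overlapped. Exact two-sided permutation tests over the 6 tumors gave p = 0.1 for Psmb8 and Psmb10 and p = 0.3 for Psmb9, with adjusted values of 0.15, 0.15 and 0.3 over the 3 ratios. The smallest p that 3 tumors against 3 allow is 0.1, so none could reach 0.05. Leukocytes, which carry much of the immunoproteasome in tissues, had Ptprc, Cd3e, Cd8a, Adgre1 and Nkg7 at 0 counts in both groups, while Flt3 rose from a mean of 0.228 to 7.9 CPM and Itgam had 4 counts in RGS tumor 12 and 0 elsewhere. Their part in the fall of Psmb8 and Psmb10 was not tested.

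**Figure D3:**
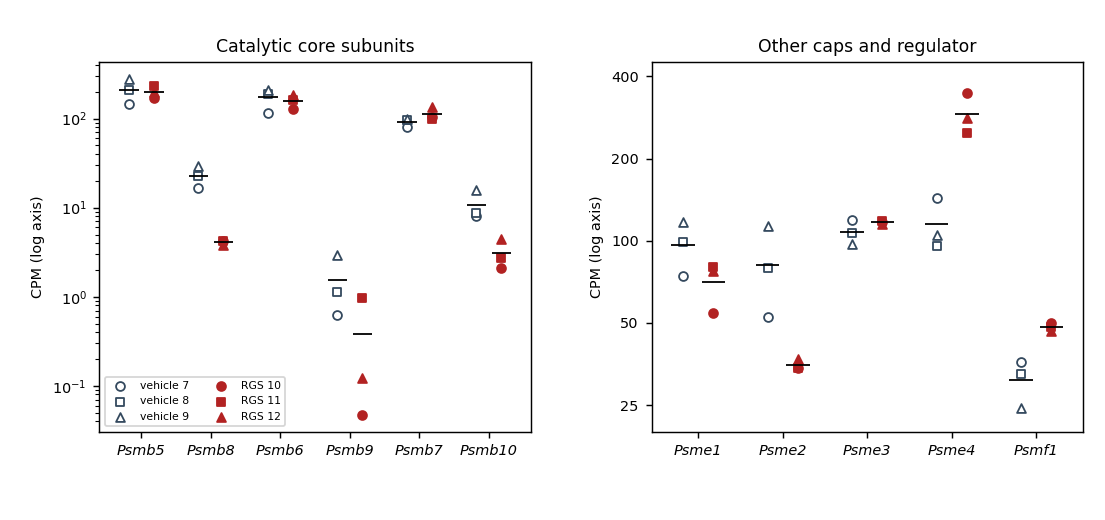
CPM in each tumor (log axes) of the catalytic core genes, each beside its immunoproteasome counterpart (left), and of the genes for the other caps and Psmf1 (right); open symbols are vehicle tumors, filled red symbols RGS tumors and bars the group means. Psmb8 lies between 16.5 and 29 CPM in the vehicle tumors and between 3.85 and 4.22 CPM in the RGS tumors, while the groups overlap in Psmb5, and Psme2 and Psme4 move in opposite directions.

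PA28, the cap made by Psme1 and Psme2 and induced by interferon, held 1 gene that fell. Psme2 lies on chromosome 14 (positions 55587441 to 55591113) and stood at 52.4, 79.2 and 113 CPM in the vehicle tumors and at 34.3, 34.2 and 37 CPM in the RGS tumors. The RGS tumors were close to each other and all below the vehicle tumors, and the log2 fold change was -1.21 ± 0.22 (SE), 2.32-fold lower, with an adjusted p of 0.000382 in edgeR's quasi-likelihood test. Psme1, its partner gene nearby on the chromosome, stood at 74.3, 98.8 and 117 CPM against 54.4, 80.1 and 77.8 CPM. The groups overlapped through vehicle tumor 7, and the log2 fold change of -0.45 ± 0.20 (SE) did not pass, with an adjusted p of 0.0844 by edgeR. It passed in limma voom (adjusted p 0.0107), without scaling factors, without the filter on low counts and without vehicle tumor 7. Psme3, which forms a PA28 ring by itself in the nucleus, stood at 119, 107 and 97.7 CPM against 117, 118 and 115 CPM, with a log2 fold change of 0.11 ± 0.15 (SE).

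Psme2b, a near-identical copy of Psme2 on chromosome 11, had 83 counts over all 6 tumors against 8481 for Psme2. How the authors counted reads that fit both is not given in the sources used here, so its log2 fold change of 2.49 ± 1.6 (SE, adjusted p 0.249, edgeR) is uncertain. The second row of Psme2, on the scaffold, had no count. The Psme1 promoter is shown because it holds the core of the interferon-stimulated response element, searched as GAAA, any 2 bases and GAAA again on both strands, a motif added after the values had been seen. The window is chr14:55578244-55578543 (GRCm38.p6, plus strand, RefSeq), with the match in capitals.
Psme1: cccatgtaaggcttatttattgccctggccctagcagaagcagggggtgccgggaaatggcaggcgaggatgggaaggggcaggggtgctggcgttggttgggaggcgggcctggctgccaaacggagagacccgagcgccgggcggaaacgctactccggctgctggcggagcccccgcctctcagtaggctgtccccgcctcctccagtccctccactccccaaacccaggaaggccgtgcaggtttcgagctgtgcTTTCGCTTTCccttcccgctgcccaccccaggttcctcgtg

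Psme4 encodes PA200, a cap of the core that works without ubiquitin and is known for the degradation of acetylated histones. It had the largest rise of the proteasome genes that passed. It lies on chromosome 11 (positions 30771726 to 30880361) and stood at 144, 96 and 105 CPM in vehicle tumors 7, 8 and 9 and at 347, 248 and 281 CPM in RGS tumors 10, 11 and 12. All RGS tumors were above all vehicle tumors. The log2 fold change was 1.35 ± 0.18 (SE), 2.54-fold higher, with an adjusted p of 1.57e-05 in edgeR's quasi-likelihood test. Psmf1, an inhibitor of the core (PI31), stood at 35.9, 32.6 and 24.4 CPM against 49.9, 48.3 and 46.7 CPM, without overlap. It rose by a log2 fold change of 0.64 ± 0.19 (SE, adjusted p 0.0159, edgeR), a call that was lost without vehicle tumor 9 (adjusted p 0.0964).

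The ATPase ring of the 19S cap held genes that moved in opposite directions, although its subunits stand in the ring in equal numbers. Psmc6, on chromosome 14 (positions 45329788 to 45349705), stood at 260, 399 and 462 CPM in the vehicle tumors and at 158, 198 and 185 CPM in the RGS tumors. No RGS tumor reached the lowest vehicle tumor, and the log2 fold change was -1.05 ± 0.19 (SE), 2.07-fold lower, with an adjusted p of 0.000286 in edgeR's quasi-likelihood test. Psmc5 stood at 92.4, 110 and 111 CPM against 133, 167 and 187 CPM, with the RGS tumors all higher. Its log2 fold change was 0.64 ± 0.17 (SE, adjusted p 0.00595, edgeR), and the adjusted p was 0.0561 without RGS tumor 12. Psmc1, the ATPase gene with the highest mean level per kb, stood at 286, 348 and 374 CPM against 329, 367 and 369 CPM and did not pass. Psmc2, Psmc3 and Psmc4 had log2 fold changes of 0.37, -0.21 and 0.40 and did not pass, though Psmc3 was called lower in limma voom (adjusted p 0.0276) and by edgeR without vehicle tumor 7 (adjusted p 0.0234). Psmc3 shares 215 exon bases with Slc39a13 on the other strand.

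Psmc6 and Psme4 are the genes that passed, 1 lower and 1 higher, whose promoter window holds the core of the antioxidant response element, TGACNNNGC or its reverse complement. Both windows are from RefSeq, GRCm38.p6, plus strand: chr14:45329574-45329873 for Psmc6 and chr11:30771525-30771824 for Psme4. The matches are in capitals.
Psmc6: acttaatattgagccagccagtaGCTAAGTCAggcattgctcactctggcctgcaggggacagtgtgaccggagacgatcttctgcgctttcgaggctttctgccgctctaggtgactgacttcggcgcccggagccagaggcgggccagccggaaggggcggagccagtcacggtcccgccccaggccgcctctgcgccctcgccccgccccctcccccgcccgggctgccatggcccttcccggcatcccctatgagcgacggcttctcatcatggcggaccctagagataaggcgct
Psme4: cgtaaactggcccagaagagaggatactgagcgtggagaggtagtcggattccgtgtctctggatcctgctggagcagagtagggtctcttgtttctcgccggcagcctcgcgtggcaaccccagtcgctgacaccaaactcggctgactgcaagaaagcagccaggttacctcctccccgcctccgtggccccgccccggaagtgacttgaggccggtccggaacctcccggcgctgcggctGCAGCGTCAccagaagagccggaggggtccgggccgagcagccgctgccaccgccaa

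The other subunits of the 19S cap, which bind ubiquitin and hold the cap together, held 4 of the 7 rises. Of these 11 genes, 4 rose and 1 fell, with a median log2 fold change of 0.16. Thus 45.5% passed, against 32.8% of all genes tested. Psmd1 and Psmd2 encode the large scaffold subunits of the cap. Psmd1, on chromosome 1 (positions 86064387 to 86139151), stood at 222, 212 and 192 CPM in the vehicle tumors and at 372, 386 and 392 CPM in the RGS tumors. The tumors of each group lay close together and apart from the other group, and the log2 fold change was 0.88 ± 0.15 (SE), 1.84-fold higher, with an adjusted p of 0.000142 in edgeR's quasi-likelihood test. Psmd2 stood at 423, 373 and 335 CPM against 604, 610 and 680 CPM, with a log2 fold change of 0.74 ± 0.15 (SE, adjusted p 0.000889, edgeR). Psmd3, a subunit of the lid, stood at 160, 149 and 149 CPM against 216, 277 and 298 CPM, with a log2 fold change of 0.79 ± 0.16 (SE, adjusted p 0.000822, edgeR). In each of the 3 genes every RGS tumor was above every vehicle tumor. The groups did not overlap in 5 of the 11 genes of this role and in 45.8% of all genes tested. Psmd1 shares 252 exon bases with Htr2b on the other strand, which had 98 counts over all tumors.

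Psmd11, another lid subunit, stood at 166, 154 and 152 CPM in the vehicle tumors and at 240, 230 and 198 CPM in the RGS tumors. Its groups did not overlap, and its log2 fold change of 0.50 ± 0.15 (SE, adjusted p 0.0154, edgeR) lost its call in 4 alternative fits, with an adjusted p of at most 0.0902. Near-identical copies of Psmd11 held 515 counts, 2.06% of those of the gene. Psmd14, the enzyme of the lid that cuts off the ubiquitin chain, was the gene that fell. It stood at 154, 246 and 303 CPM in the vehicle tumors and at 134, 147 and 183 CPM in the RGS tumors. Vehicle tumor 7 lay among the RGS tumors, so the groups overlapped. Psmd14 fell by 0.60 on the log2 scale (SE 0.20, adjusted p 0.0312, edgeR), and without vehicle tumor 9 its log2 fold change was -0.37 with an adjusted p of 0.168. Psmd8, the cap gene with the highest mean level per kb, stood at 500, 628 and 645 CPM against 632, 649 and 704 CPM, overlapping and not past the test. Psmd4, a ubiquitin receptor of the cap, had a log2 fold change of 0.35 with an adjusted p of 0.0804 by edgeR. It was called higher by DESeq2 (adjusted p 0.0387) and by limma voom (adjusted p 0.027). Psmd6, Psmd7, Psmd12 and Psmd13 had log2 fold changes of 0.09, 0.12, 0.10 and 0.15, and Psmd13 shares 342 exon bases with Sirt3 on the other strand.

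The Psmd14 promoter is shown with its CCAAT boxes in capitals, where a box and a reverse complement overlap at the end of the window. The window is chr2:61711444-61711743 (GRCm38.p6, plus strand, RefSeq).
Psmd14: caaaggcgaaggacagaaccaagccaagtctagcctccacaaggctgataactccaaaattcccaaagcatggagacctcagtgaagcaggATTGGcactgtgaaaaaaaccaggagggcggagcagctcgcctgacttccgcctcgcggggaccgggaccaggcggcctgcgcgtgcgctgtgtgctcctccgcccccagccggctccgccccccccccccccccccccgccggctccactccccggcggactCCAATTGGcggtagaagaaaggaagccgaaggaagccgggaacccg

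Of the 4 chaperone genes of core assembly 1 fell, or 25%, against 16.5% of all genes tested. Their median log2 fold change was -0.55, with -0.24 without vehicle tumor 9 and -0.79 without vehicle tumor 7. Psmg3, which with Psmg4 helps to build the alpha ring, was counted 374, 529 and 540 times in vehicle tumors 7, 8 and 9 and 117, 193 and 76 times in RGS tumors 10, 11 and 12, or 10.7, 18.9 and 23.2 CPM against 5.54, 14.5 and 4.65 CPM. RGS tumor 11 lay above vehicle tumor 7, so the groups overlapped. Psmg3 fell by 1.10 on the log2 scale (SE 0.39, adjusted p 0.0369, edgeR), a call lost in 4 alternative fits, with an adjusted p of 0.151 without RGS tumor 10. It shares 280 exon bases with Gm26938 on the same strand, a gene not used here. Psmg4 stood at 4.4, 6.95 and 12.6 CPM against 5.26, 5.27 and 2.51 CPM and did not pass, with a log2 fold change of -0.88 ± 0.45 (SE). Psmg1 and Psmg2, which form the other chaperone pair of the core, had log2 fold changes of -0.23 and -0.10. Pomp, a chaperone of late core assembly, stood at 75.4, 104 and 111 CPM against 98.4, 107 and 146 CPM, with a log2 fold change of 0.27 ± 0.19 (SE, adjusted p 0.283, edgeR). The chaperones of the cap, Psmd5 and Psmd9, had log2 fold changes of 0.30 and 0.06 and did not pass, nor did either have an unadjusted p under 0.05 or a call in DESeq2 or limma voom.

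Coding length was taken from the annotation as the longest coding sequence of each gene. Over the 42 tested proteasome genes with a coding length, Spearman's rho of log2 fold change with coding length was 0.55, and over 12139 tested genes of the table it was 0.1. These points share the same 6 libraries. Within the 19S cap rho was 0.53 over 17 genes, and within the core, where the genes differ little in length, -0.1 over 14. With the length of all exons in place of the coding length, rho over the 43 genes was 0.35. The median coding length was 751 bases in the 6 lower genes, 1590 bases in the 7 higher genes and 792 bases in the genes that did not pass. Psme4, with 5529 coding bases, was the longest and had the largest rise that passed, but Psmc6, with 1167 coding bases, fell.

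**Figure D4:**
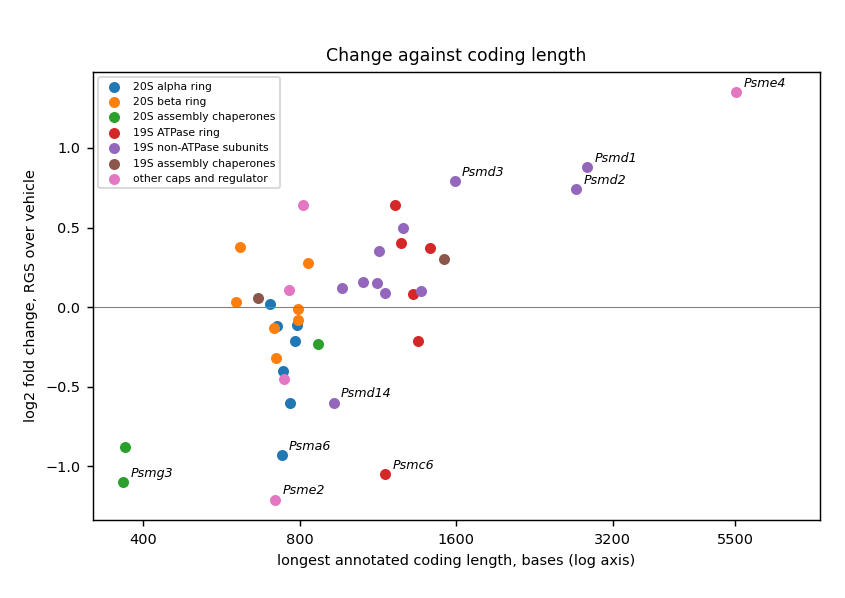
Log2 fold change of RGS over vehicle against the longest annotated coding length (log axis) for the tested proteasome genes with a coding length except Psme2b, coloured by role. Psme4 (5529 bases), Psmd1 and Psmd2 lie at the upper right, and the core genes lie between 603 and 831 bases on both sides of 0.

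Promoter windows were matched for 37 of the 45 symbols, and a gene was counted once if any of its windows held a motif on either strand. The core of the antioxidant response element was in 6 of 37 (16.2%) and in 14% of all 27025 genes with a window. The CCAAT box was in 12 of 37 (32.4%) and in 41.1% of all genes, and the interferon-stimulated response element core in 5 of 37 (13.5%) and in 3.99% of all genes. Of 6 lower genes with a window, 3 held a CCAAT box (Psma3, Psma6 and Psmd14), and of 6 higher genes 0 did. Of 24 genes with a window that did not pass, 8 held it. The antioxidant core was in 1 of 6 lower, 1 of 6 higher and 4 of 24 other genes, namely Psmb5, Psmb6, Psmd9 and Psmd12 among the last. The genes with the interferon-stimulated response element core were Psmb3, Psmd4, Psmd9, Psme1 and Psmg4, none of which passed. Among the 3 immunoproteasome genes 1 held a CCAAT box and 0 held either of the other patterns in these windows. These counts describe letters in short windows and not bound factors.

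Genes that work with the proteasome were taken from 4 further lists. Of 12 tested genes for other parts and partners of the proteasome, 1 rose and 0 fell, or 8.33%, against 32.8% of all genes tested. The riser was Adrm1, a ubiquitin receptor of the cap, at 121, 114 and 109 CPM in the vehicle tumors and 181, 224 and 241 CPM in the RGS tumors, without overlap. Its log2 fold change was 0.91 ± 0.16 (SE, adjusted p 0.00021, edgeR). Of 8 transcription factors of proteasome genes and their partners, 1 rose and 0 fell (12.5%). It was Mafg, a small MAF partner, with 0.71 ± 0.15 (SE). Nfe2l1 stood at 460, 367 and 316 CPM against 480, 411 and 421 CPM, overlapping, with a log2 fold change of 0.20 (adjusted p 0.374, edgeR), and 0.36 with an adjusted p of 0.0341 without vehicle tumor 7. Nfe2l2 had a log2 fold change of -0.29 (adjusted p 0.157, edgeR), with calls in limma voom and without scaling factors.

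Of 12 tested genes for ubiquitin and its carriers, 4 rose and 1 fell, or 41.7%, against 32.8% of all genes tested. Ubb, a polyubiquitin gene, stood at 459, 538 and 590 CPM in the vehicle tumors and at 820, 966 and 1023 CPM in the RGS tumors. The groups did not overlap, and Ubb rose by a log2 fold change of 0.82 ± 0.16 (SE, adjusted p 0.000477, edgeR). Uba1, the main ubiquitin-activating enzyme, rose by a log2 fold change of 0.67 ± 0.15 (SE), and Ubqln2, a carrier of ubiquitinated proteins, by 0.64 ± 0.19 (SE). Rps27a, which encodes ubiquitin fused to a ribosomal protein, fell from 525, 861 and 1196 CPM to 316, 300 and 344 CPM, with a log2 fold change of -1.43 ± 0.22 (SE).

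Of 7 tested genes for p97, the ATPase that pulls ubiquitinated proteins out of complexes, and its cofactors, 3 rose and 1 fell. That was 57.1%, against 32.8% of all genes tested. Vcp, which encodes p97, stood at 500, 356 and 344 CPM in the vehicle tumors and at 1017, 1127 and 1182 CPM in the RGS tumors. The groups lay far apart, with a log2 fold change of 1.47 ± 0.17 (SE, 2.77-fold, adjusted p 2.5e-06, edgeR). Its cofactors Nploc4 and Nsfl1c rose by log2 fold changes of 0.72 ± 0.17 and 0.78 ± 0.16 (SE), and Faf1 fell, with -0.85 ± 0.16 (SE). The groups did not overlap in 5 of the 7 tested genes of this list, these 4 among them. They did not overlap in 45.8% of all genes tested.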

How the data were processed

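The deposited table holds raw counts, with a column for each tumor, and every gene's position, length and type. Per the labels and the submitters' processing notes, reads were handled with cutadapt 1.18 and FastQC 0.11.7, aligned to mm10 with STAR 2.7.1a and counted with featureCounts 1.6.4. Whether counting used strand, and what was done with multi-mapping reads, is not given in the sources used here. Columns were matched to samples by the treatment and number in their names. Positions of 38971 genes are those of GENCODE M21.

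The 15355 genes whose median count reached 5 in either group were fitted in R 4.3.3 with edgeR 4.0.16, using TMM factors (0.92 to 1.08), the quasi-likelihood F test and Benjamini-Hochberg adjustment over all of them. Standard errors were obtained as the absolute log2 fold change over the square root of F. CPM are on TMM-scaled library sizes. Two-sided exact permutation tests used scipy 1.17.1. Copies were genes with at least 95% identity over at least 200 bases by blastn 2.17.0. Scripts were tested on simulated counts. Alternatives were DESeq2 1.42.0, limma 3.58.1 voom with quality weights, RLE, upper-quartile and no scaling factors, no filter and edgeR's filterByExpr, counts thinned to the smallest library, removal of mitochondrial and of ribosomal protein genes, each tumor left out in turn and a log2 fold change of at least 1.

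The members, lists and tests were chosen with earlier results of these data known. Named genes were, by rule, up to 2 lower and 2 higher genes past the threshold per role, the gene with the highest level per kb, the catalytic subunits with their counterparts, Psmd14, Psme1 and Psme2, and up to 3 genes per list and direction with Nfe2l1, Nfe2l2, Adrm1 and Pomp. The remaining members and Ubqln2 were named after their values were seen. Some genes of these lists are not reported here by name. Same-group tumors differed beyond counting noise (chi-square per degree of freedom 19.6 to 125), so all 6 were kept as separate samples.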

Additional observations from a re-analysis of the deposited data

How the results depend on the processing

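No paired analysis was possible because the tumor numbers, 7 to 9 and 10 to 12, are not shared between the groups. The 6 lower genes became 10 with limma voom and 3 at a log2 fold change of at least 1, where the 7 higher genes became 1. With counts thinned to the smallest library, 6 genes were lower and 7 higher, and the median over the proteasome genes was 0.06. Leaving out each tumor in turn gave 3 to 11 lower and 6 to 7 higher genes. Without scaling factors, the median of all genes shifted by -0.14 and lower calls made up 62.8% of calls in place of 50.3%. That setting gave 7 lower and 5 higher proteasome genes, and the median of the 19S non-ATPase subunits was 0.02 in place of 0.16. Leaving out a tumor moved the median of the 43 genes between -0.05 and 0.19, the alpha ring between -0.42 (without vehicle tumor 7) and 0.02 (without vehicle tumor 9), the beta ring between -0.21 and 0.19 (same tumors), the ATPase ring between 0.10 and 0.31 and the other cap subunits between 0.05 and 0.28. The causes were not tested. Of 943 comparisons of single genes with an alternative, 905 kept their call or lack of one (37 of these, without a call, changed sign), 21 lost a call, 17 gained one and 0 reversed. Psma3 (6 fits, adjusted p up to 0.283), Psmd14 (4, 0.168), Psmg3 (4, 0.151), Psmd11 (4, 0.0902), Psmf1 (2, 0.0964) and Psmc5 (1, 0.0561) lost calls. Of these, Psmd11 and Psmf1 lost theirs without scaling factors too. The 3 ratios of immunoproteasome to constitutive genes kept their direction without each tumor, and for Psmb9 over Psmb6 the log2 difference ran from -3.95 to -1.93. Psmb9, Psmg4 and Psme2b had too few counts for small changes to be seen.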
